A study of Mus musculus with 11 samples.

Results

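The 42 genes described here encode enzymes that oxidise, hydrolyse and conjugate foreign compounds, the pumps that carry the products out of the cell, and the AhR and NRF2 sensor pathways. They were taken from a fixed list of symbols and sorted into 8 classes by function. All 42 were found among the 31168 genes of the table, and 39 had a mean of at least 1 count per 1000000 counts (CPM) over the 11 libraries. Cyp1a1 (mean 0.0448 CPM), Cyp2b10 (0.0715 CPM) and Gstm3 (0.698 CPM) lay under that minimum, and Hmox1, at 1.35 CPM, was the member just inside it. The libraries came from 2 cm of distal ileum of mice treated with dextran sodium sulfate, a polysaccharide that injures the intestinal lining. The WT group had 6 mice of genotype H2-Ab1 fl/fl; Villin:Cre-, and the dIEC group had 5 mice of genotype H2-Ab1 fl/fl; Villin:Cre+. Both groups therefore carried floxed alleles of H2-Ab1, an MHC class II beta chain gene, both received dextran sodium sulfate, and only dIEC mice carried Cre under the villin promoter, which is active in the intestinal epithelium. The series description names Villin:Cre- for each group, so the groups follow the genotype label of each sample. Age, sex, cage and the dose and length of treatment were not given in the sources used here, and no untreated mice were analysed here.

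The gut epithelium handles foreign compounds in steps. Cytochrome P450 enzymes, carboxylesterases, epoxide hydrolases and carbonyl reductases expose or create a reactive group. Glutathione transferases, UDP-glucuronosyltransferases and sulfotransferases then attach a polar group, and ATP-driven pumps return the product to the lumen. AhR, a receptor in the cytosol, binds aromatic compounds from diet and microbes, pairs with ARNT and binds DNA at a short core motif, and its classical targets are Cyp1a1, Cyp1b1, Ahrr and Tiparp. NRF2, encoded by Nfe2l2, is held for degradation by KEAP1, and when electrophiles or oxidants modify KEAP1 it accumulates and binds antioxidant response elements, at genes such as Nqo1, Gclc, Gclm, Txnrd1 and Hmox1. In the small intestine most of the drug-handling enzymes and pumps are made by mature absorptive enterocytes.

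Total counts per library were 6603965 to 9681698, of which 22.9 to 37.3% fell on protein-coding genes without Lars2. H2-Ab1, the targeted gene, had a mean of 82.7 ± 27.2 CPM over the 6 WT libraries (SD) and of 25.8 ± 9.82 CPM over the 5 dIEC libraries, with no overlap (two-sided exact permutation p = 0.00433, the smallest that 462 splits allow). Epithelial markers were present in every library, and the ileal bile acid genes Fabp6 and Slc10a2 had at least 79.6 and 49.3 CPM in each. A list of 25 absorptive enterocyte markers had a mean log2 CPM of 7.35 in WT replicate 8 and of 5.47 to 6.43 in the other WT libraries. The same score averaged 6.09 ± 0.696 over WT and 6.91 ± 0.593 over dIEC libraries (exact permutation p = 0.0736), the dIEC values running from 5.92 (replicate 6) to 7.42 (replicate 1). Of its markers, 23 were tested and 23 had higher fitted values in dIEC, and none of the 25 was at 0 in all libraries. A list of 9 fibroblast and matrix markers went the other way, with 8 of 8 tested lower in dIEC. It summed to 286 to 926 CPM in WT and 277 to 471 CPM in dIEC, with a two-sided exact permutation p of its score of 0.0433. Smooth muscle markers (0 of 9 tested above 0; exact permutation p = 0.169) and crypt and proliferation markers (0 of 8; p = 0.113) were lower in dIEC too. Above 0 lay 1 of 7 endothelial, 1 of 6 enteric neuron and glia, and 5 of 6 leukocyte markers tested. The 6 ileal position markers, all tested and all with higher fitted values in dIEC, summed to 287 to 885 CPM in WT and 485 to 929 CPM in dIEC, with a mean log2 CPM of 5.26 ± 0.398 (WT) against 5.87 ± 0.434 (dIEC; exact permutation p = 0.0433). Of the pancreas and liver markers 1 of 8 was tested and lay lower (exact permutation p = 0.00866). Adjusted over the 15 marker lists, 0 of these scores passed (0.130 to 0.957), and the part of these lists in the members' values was not tested other than by the enterocyte and epithelial references used below. Since each library is whole tissue, fewer cells of a type and less RNA per cell cannot be told apart in any value given here.

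WT replicate 8 and dIEC replicate 1 stood apart for these genes. Of the 39 members with at least 1 CPM, 11 were highest in WT replicate 8 and 10 in dIEC replicate 1 (28.2% and 25.6%), whereas those libraries were highest for 12.6% and 17.3% of all genes tested. Leaving out WT replicate 8 moved the log2 fold change of 17 of the 38 members tested by over 1.5 times or turned its sign (4 turned), and leaving out dIEC replicate 1 did so for 17 (4 turned). Those values are given beside each such member below.

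**Figure D1:**
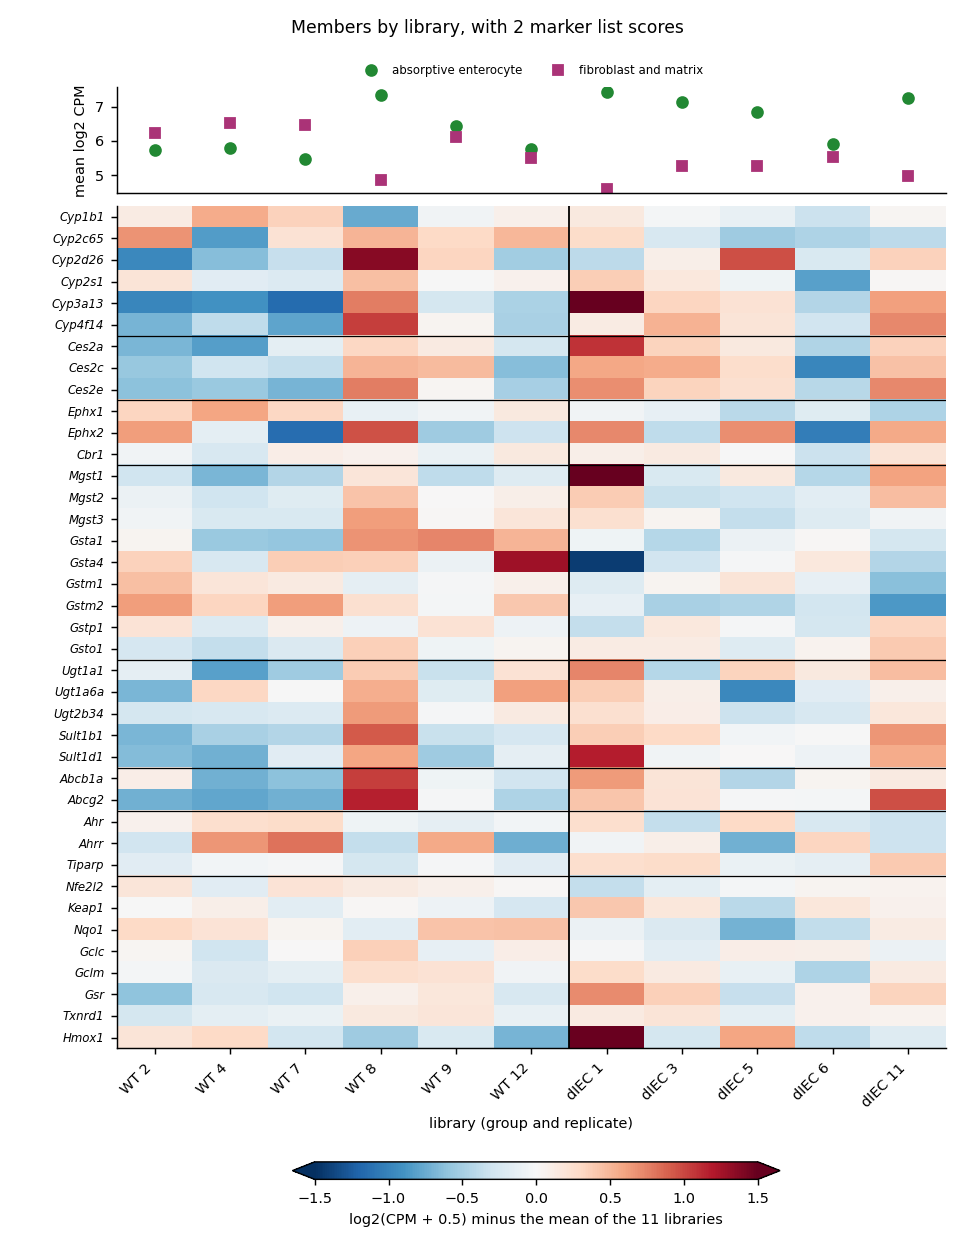
Heat map of the 39 members (rows, grouped by class with black lines) in the 11 libraries (columns), coloured by log2(CPM + 0.5) minus the gene's mean over the libraries, with colours saturating at the ends of the scale; the dots above give the mean log2 CPM of the absorptive enterocyte and the fibroblast and matrix markers in each library. WT replicate 8, with the enterocyte score of 7.35, is red for most P450, carboxylesterase, conjugation and efflux genes, as is dIEC replicate 1.

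No member passed the adjusted threshold in the comparison of dIEC with WT, and the differences within the module went in both directions. The lowest p among the members belonged to Gstm2, a mu-class glutathione transferase, which averaged 3.27 CPM (WT) against 1.67 CPM (dIEC). Lower values in dIEC were also seen for Ephx1 (log2 fold change -0.51 ± 0.18, SE), Nqo1 (-0.48 ± 0.18), Gsta4 (-0.82 ± 0.33) and Cyp2c65 (-0.57 ± 0.27). Higher values in dIEC were seen for Cyp3a13 (1.28 ± 0.50), Mgst1 (0.89 ± 0.35), Ces2a (0.58 ± 0.26), Gsr (0.44 ± 0.18) and Tiparp (0.28 ± 0.12). These are the 10 members with an unadjusted p under 0.05 in edgeR's quasi-likelihood test, in which a log2 fold change compares dIEC with WT after scaling the libraries.

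Of the 39 members, 38 passed the filter on low counts and were tested among 15911 genes, and Hmox1 did not pass it. After Benjamini-Hochberg adjustment over all 15911 genes by edgeR, 0 of 38 passed, as did 0.00628% of all genes, and the members' adjusted p ran from 0.427 to 0.989. At an unadjusted p under 0.05 there were 10 of 38 members (26.3%), 5 higher and 5 lower, beside 10.7% of all genes tested (4.86% higher and 5.79% lower). DESeq2, run without that filter, gave an adjusted p to 31 of the 38, of which 0 passed (0.11% of the 10013 genes given one). It gave none to the other 7, among them Gstm2, Ephx1, Nqo1, Gsta4 and Cyp2c65. At an unadjusted p under 0.05 DESeq2 had 10 of 38, 6 higher and 4 lower, beside 6.19% of 31146 genes. That share includes genes too low for edgeR's filter, so it cannot be set beside the 10.7% above. Log2 fold changes were above 0 for 21 of 38 members and for 48.8% of all genes, with a median of 0.045 for the members and -0.0073 for all genes. Ribosomal RNA genes and Gm42418 held 26.2 to 43.4% of the counts of WT libraries and 28.7 to 49.2% of those of dIEC libraries. Library totals include these unequal shares, whose part in the values scaled by totals was not tested. With library totals as the only scaling, 14 of 38 members and 17.5% of all genes were above 0, and the median of all genes was -0.22. Under that scaling 8 members had an unadjusted p under 0.05, 0 higher and 8 lower (beside 0.792% of all genes higher and 13.8% lower). The standard errors ran from 0.10 to 0.50 with a median of 0.21.

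The number of members at an unadjusted p under 0.05 depended on single libraries. It was 4 without dIEC replicate 1 (Cyp2c65, Ephx1, Gstm2 and Nqo1, beside 7.78% of all genes), 5 without WT replicate 2 (beside 7%), 5 without dIEC replicate 11 (beside 7.14%) and 16 without WT replicate 8 (42.1%, beside 21% of all genes). Without WT replicate 8, edgeR's adjusted threshold was passed by 319 genes (2.02% of those tested) and by 2 members, Gstm2 at a log2 fold change of -0.99 (adjusted p = 0.0457) and Sult1b1 at 0.73 (adjusted p = 0.0328). With both WT replicate 8 and dIEC replicate 1 left out, 7 genes (0.0433%) and 0 members passed edgeR's adjusted threshold, the lowest adjusted p of a member being 0.0565, and 14 members had an unadjusted p under 0.05 (36.8%, beside 18.4% of all genes). Ephx1 and Gstm2 had an unadjusted p under 0.05 in each of the 11 fits with 1 library left out, and Nqo1 in 10 of the 11.

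**Figure D2:**
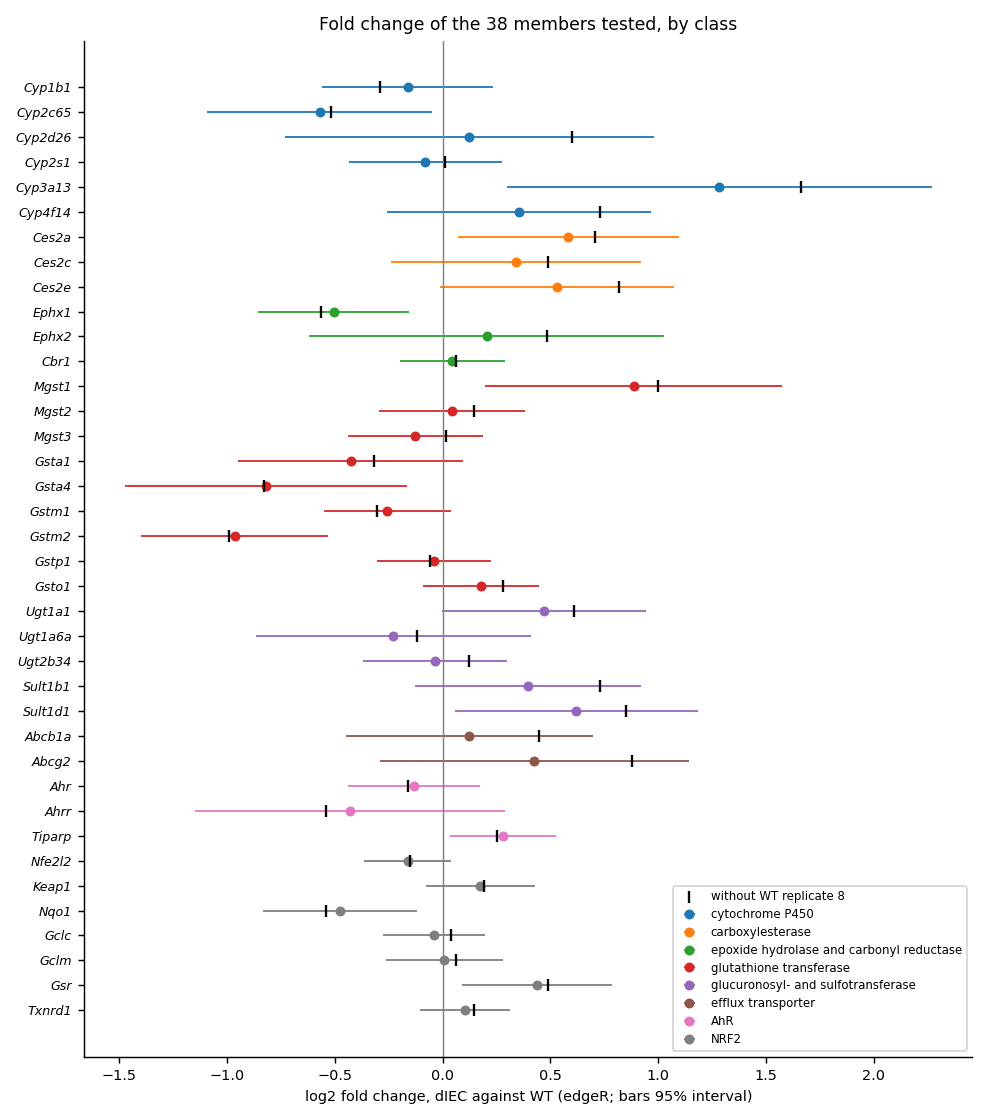
Log2 fold change of each of the 38 tested members, dIEC against WT (horizontal axis), coloured by class, with its normal 95% interval as a bar and the value without WT replicate 8 as a black tick; a positive value is higher in dIEC. The intervals of 27 members span 0, and Gstm2 at -0.96 and Cyp3a13 at 1.28 are the lowest and the highest. A normal interval can be narrower than edgeR's F test allows. That of Sult1d1, 0.056 to 1.18, leaves out 0 although its unadjusted p by edgeR was 0.0517.

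Among the cytochrome P450 genes, 6 were tested, 3 lay above 0 and 3 below, and the class median was 0.022. Cyp3a13, the principal CYP3A gene of the mouse small intestine and a broad oxidiser of drugs and steroids (ENSMUSG00000029727.7, chr5:137892932-137921619, minus strand, GRCm38), ran from 21.5 to 82.7 CPM with a median of 30.1 in WT and had 237, 60.6, 56.3, 35.4 and 74.6 CPM in dIEC replicates 1, 3, 5, 6 and 11 in that order, which is kept for all dIEC values below. All dIEC libraries lay above the WT median, but only dIEC replicate 1 lay above WT replicate 8, so the groups overlapped. The log2 fold change of 1.28 ± 0.50 (unadjusted p = 0.0263 by edgeR; two-sided exact permutation p = 0.0909) became 0.58 without dIEC replicate 1, 1.66 without WT replicate 8 and 0.27 with the enterocyte score as a covariate. Cyp4f14, an omega-hydroxylase of fatty acids, leukotriene B4 and vitamin E and the member with the highest mean level of its class, ran from 71.3 to 255 CPM with a median of 91.2 in WT and had 134, 178, 141, 101 and 203 CPM in dIEC. Here too every dIEC library lay above the WT median, but unlike for Cyp3a13 all of them lay under WT replicate 8. Cyp4f14 had a log2 fold change of 0.35 ± 0.31 (95% interval -0.26 to 0.97), and 0.73 without WT replicate 8 (unadjusted p = 0.00204 by edgeR).

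Cyp2c65, an arachidonic acid oxidising P450 of the gut, showed the opposite order. It ran from 2.19 to 7.20 CPM with a median of 5.85 in WT and had 5.32, 3.58, 2.84, 2.99 and 3.16 CPM in dIEC. All 5 dIEC libraries lay below the WT median, yet WT replicate 4 was the lowest of all 11. The log2 fold change of Cyp2c65 was -0.57 ± 0.27 (unadjusted p = 0.0494 by edgeR; exact permutation p = 0.0779) on counts of 14 to 58 per library, and 20.6% of its 50-base stretches also occur in Cyp2c66 or a predicted gene. Cyp1b1, an AhR target also made by stromal cells, had 3.83 to 10.3 CPM in WT and 5.35 to 7.62 CPM in dIEC. Cyp2s1, an epithelial P450, had 19.97 to 31.7 and 12.9 to 30.0 CPM, and Cyp2d26 had 3.11 to 17.7 and 4.89 to 13.4 CPM. The values of these 3 genes overlapped over most of their range, with log2 fold changes of -0.16, -0.080 and 0.12. In that order these were -0.29, 0.012 and 0.60 without WT replicate 8 and -0.22, -0.19 and 0.25 without dIEC replicate 1. Cyp1a1, the most inducible AhR target, had 1 count in each of WT replicates 2, 4 and 7 and dIEC replicate 11 and 0 counts in the other 7 libraries. Cyp2b10, a target of the receptor CAR, had at most 2 counts in a library. Neither level could be compared between the groups at this depth.

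Of 41 other P450 genes and redox partners, 19 were tested and 12 lay above 0 (63.2%, beside 48.8% of all genes). Unadjusted p was under 0.05 for 1 of them (5.26%, beside 10.7% of all genes). That gene, Cyp2j9, had 1.85 to 3.02 CPM in WT and 1.15 to 1.73 CPM in dIEC. Its groups did not overlap, as was so in the same direction for 0.333% of all genes tested. The log2 fold change was -0.87 ± 0.21 and the exact permutation p 0.00433. Cyp2j9, named for the lowest p of its list, passed edgeR's adjusted threshold only without WT replicate 8 (adjusted p = 0.0394). Cyp3a25, another CYP3A gene, averaged 6.42 ± 3.60 CPM (WT) against 18.1 ± 21.3 CPM (dIEC) (SD; log2 fold change 1.503 ± 0.71), and dIEC replicate 1, the library that was also highest for Cyp3a13, had 54.5 CPM. Cyp4v3 averaged 15.3 CPM (WT) against 21.5 CPM (dIEC) and passed only without WT replicate 8 (edgeR adjusted p = 0.0400).

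**Figure D3:**
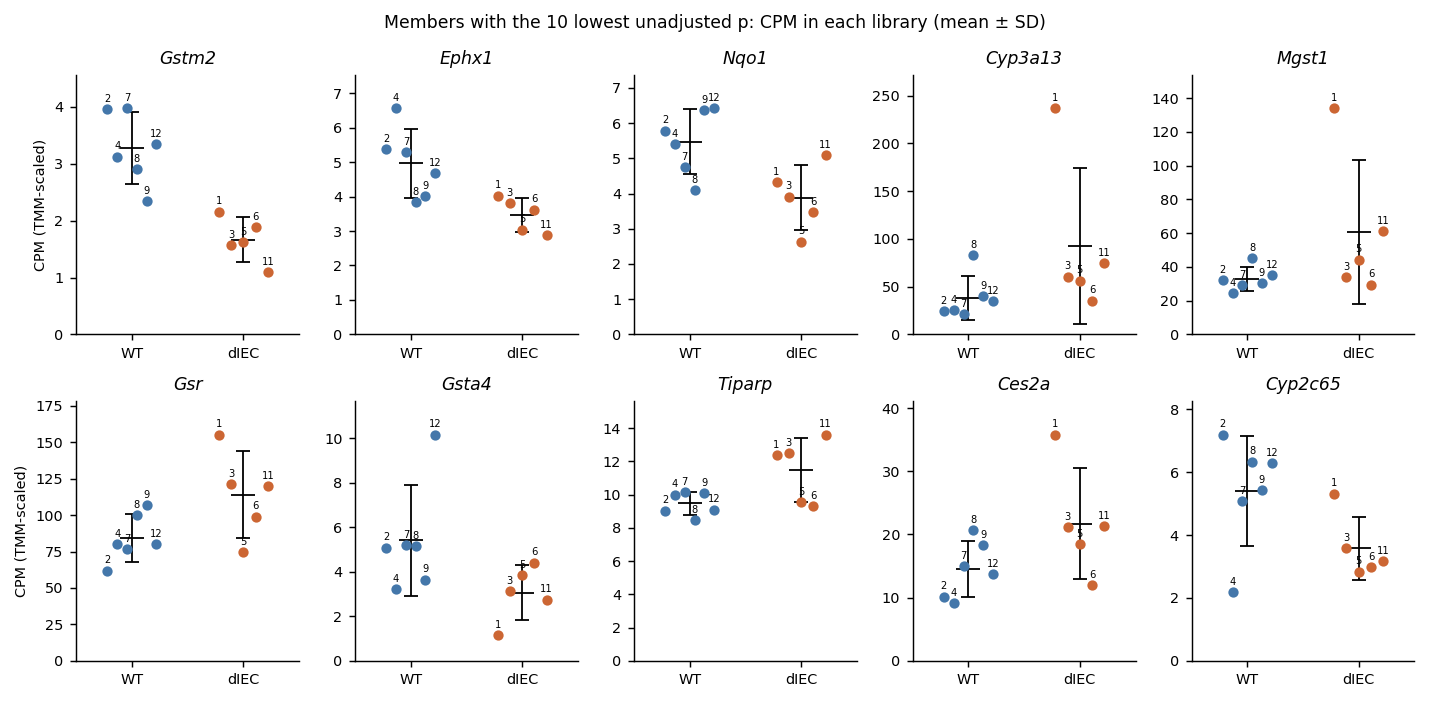
CPM (vertical axis, from 0) of the members with the 10 lowest unadjusted p values, 1 point per library labelled with its replicate number, with the mean and SD of each group (6 WT, 5 dIEC). Gstm2 is the gene whose groups do not overlap, and in Cyp3a13 and Mgst1 dIEC replicate 1 (237 and 134 CPM) lies far above the other libraries.

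The 3 carboxylesterases, which cleave esters, amides and acylglycerols, all lay above 0, with a median of 0.53. Ces2a ran from 9.16 to 20.7 CPM with a median of 14.4 in WT and had 35.8, 21.1, 18.4, 11.97 and 21.3 CPM in dIEC. dIEC replicates 1, 3 and 11 lay above the highest WT library, replicate 8, and dIEC replicate 6 lay below the WT median. The log2 fold change of Ces2a was 0.58 ± 0.26 (unadjusted p = 0.0439 by edgeR; exact permutation p = 0.104) and 0.33 without dIEC replicate 1. Ces2e, the carboxylesterase with the highest level, ran from 66.8 to 185 CPM with a median of 74.8 in WT and had 176, 136, 128, 81.3 and 179 CPM in dIEC. Every dIEC library lay above the WT median, and WT replicate 8 above all of them. Ces2e had a log2 fold change of 0.53 ± 0.28 (95% interval -0.014 to 1.07), and 0.82 without WT replicate 8 (unadjusted p = 0.00139 by edgeR). Ces2c had 23.5 to 52.4 CPM in WT and 18.4 to 55.1 CPM in dIEC, with dIEC replicate 6 the lowest library of all, and a log2 fold change of 0.34. Ces2a and Ces2c share 17.3% and 36.1% of their 50-base stretches with neighbouring Ces2 genes, so their counts may include reads of these. The ratio of Ces2a to Ces2e counts was 0.155 in WT and 0.152 in dIEC, and that of Ces2c to Ces2e was 0.369 and 0.308. These are geometric means over the libraries of a group, with 0.5 added to each count. With the enterocyte score as a covariate the class median was -0.069.

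Ephx1, microsomal epoxide hydrolase, opens reactive epoxides of drugs and polycyclic hydrocarbons. It ran from 3.83 to 6.56 CPM with a median of 4.99 in WT and had 4.03, 3.80, 3.04, 3.62 and 2.89 CPM in dIEC. Only dIEC replicate 1 lay above the lowest WT library, which was replicate 8. Ephx1 (ENSMUSG00000038776.13, chr1:180976210-181020904, minus strand) had a log2 fold change of -0.51 ± 0.18 (95% interval -0.85 to -0.16; unadjusted p = 0.0128 by edgeR; exact permutation p = 0.0130), on 15 to 63 counts per library. Ephx2, the soluble hydrolase of fatty acid epoxides, had 3.75 to 17.7 CPM in WT and 4.09 to 15.0 CPM in dIEC, a spread of several-fold within each group and a log2 fold change of 0.20 ± 0.42, which became 0.48 without WT replicate 8 and 0.051 without dIEC replicate 1. Cbr1, a carbonyl reductase that uses NADPH and the gene with the highest mean in this class, ran from 8.74 to 11.5 CPM with a median of 10.4 in WT and had 11.1, 11.4, 10.3, 8.19 and 11.95 CPM in dIEC. The Cbr1 groups covered nearly the same range, and its log2 fold change of 0.045 ± 0.12 had a 95% interval of -0.20 to 0.29.

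Of 50 other carboxylesterase and oxidoreductase genes, 35 were tested and 17 lay above 0 (48.6%, beside 48.8% of all genes). Unadjusted p was under 0.05 for 3 higher and 2 lower (14.3%, beside 10.7% of all genes). Akr1b3, aldose reductase, had 3.81 to 5.31 CPM in WT and 2.57 to 3.74 CPM in dIEC. The Akr1b3 groups did not overlap (log2 fold change -0.49 ± 0.17; exact permutation p = 0.00433), as was so in the same direction for 0.333% of all genes tested. Akr1b3 was named for the lowest p of its list. Xdh, which oxidises purines to uric acid, averaged 104 ± 23.6 CPM (WT) against 163 ± 58.9 CPM (dIEC) (log2 fold change 0.64 ± 0.23). Akr1b7, another aldo-keto reductase, averaged 2.06 and 3.71 CPM and passed edgeR's adjusted threshold only without WT replicate 8 (adjusted p = 0.0421).

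Of the 9 glutathione transferases tested, 3 lay above 0 and 6 below, with a median of -0.13. At an unadjusted p under 0.05 Gstm2 and Gsta4 lay lower in dIEC and Mgst1 higher (33.3% of the class, beside 10.7% of all genes). Gstm2 is shown first because it was the member with the lowest p and because its coding sequence is close to those of its neighbours Gstm1 and Gstm3, which matters for how far its counts can be told from theirs. Gstm2 (ENSMUSG00000040562.12, chr3:107981702-107986453, minus strand), Gstm1 (chr3:108012255-108017973, minus strand) and Gstm3 (chr3:107963696-107969283, minus strand) lie in 1 cluster. Their coding sequences are each 657 bases long in the GENCODE vM21 transcripts of GRCm38. Coding bases 301 to 420, counted from the A of the start codon, are given below in the sense direction, and capitals mark bases that differ from Gstm1.
Gstm1: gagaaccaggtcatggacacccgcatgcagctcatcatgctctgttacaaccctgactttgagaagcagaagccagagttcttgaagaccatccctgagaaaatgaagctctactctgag
Gstm2: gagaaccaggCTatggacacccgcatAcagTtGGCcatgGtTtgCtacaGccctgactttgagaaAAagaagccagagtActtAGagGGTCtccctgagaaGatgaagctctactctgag
Gstm3: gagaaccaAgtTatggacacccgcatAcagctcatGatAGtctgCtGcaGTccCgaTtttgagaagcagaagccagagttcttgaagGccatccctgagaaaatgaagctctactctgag
In this stretch Gstm2 differs from Gstm1 at 21 of 120 bases and Gstm3 at 13. Over the whole coding sequence Gstm2 is 86.0% identical to Gstm1 and 84.8% to Gstm3, and Gstm1 is 89.5% identical to Gstm3. Of the 50-base stretches of their transcripts, 5.65% of those of Gstm2, 18.9% of those of Gstm1 and 28.8% of those of Gstm3 occur in another gene.

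Gstm2 ran from 2.34 to 3.97 CPM with a median of 3.23 in WT and had 2.16, 1.56, 1.62, 1.89 and 1.10 CPM in dIEC. Every dIEC library lay below every WT library. This was the 1 member of 38 whose groups did not overlap, as was the case, in the same direction, for 0.333% of all genes tested. The means were 3.27 ± 0.631 CPM over the 6 WT libraries (SD) and 1.67 ± 0.395 CPM over the 5 dIEC libraries, the log2 fold change -0.96 ± 0.22 (95% interval -1.40 to -0.53) and the two-sided exact permutation p 0.00433. The edgeR adjusted p was 0.427, and the counts behind these values were 8 to 36 per library. Gstm1 had 11.2 to 17.1 CPM in WT and 7.83 to 14.2 CPM in dIEC, a log2 fold change of -0.26 ± 0.15. The ratio of Gstm2 to Gstm1 counts, with 0.5 added to each count, does not depend on library scaling. It was 0.194 to 0.296 in WT and 0.121 to 0.205 in dIEC. Only dIEC replicate 1 overlapped the WT range of that ratio (exact permutation p = 0.00866, and 0.0606 adjusted over the 7 ratios compared, of which 0 passed). Gstm3 had 0.132 to 1.65 CPM in WT and 0 to 1.10 CPM in dIEC and was not tested. The mu-class pseudogene Gstm2-ps1 averaged 4.41 ± 0.837 CPM (WT) against 3.82 ± 0.949 CPM (dIEC; exact permutation p = 0.312).

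Gsta4, which conjugates 4-hydroxynonenal and other products of lipid peroxidation, ran from 3.23 to 10.2 CPM with a median of 5.12 in WT and had 1.15, 3.13, 3.85, 4.41 and 2.75 CPM in dIEC. WT replicate 12 stood well above the other WT libraries, and dIEC replicate 1 was the lowest of all. Gsta4 had a log2 fold change of -0.82 ± 0.33 (unadjusted p = 0.0274 by edgeR; exact permutation p = 0.0390), which became -0.54 without WT replicate 12 and -0.61 without dIEC replicate 1. Gsta1 had 3.86 to 10.4 CPM in WT and 4.36 to 6.14 CPM in dIEC, and since 90.5% of its 50-base stretches occur in Gsta2 or predicted genes, its value cannot be ascribed to 1 gene. Mgst1, a membrane-bound transferase and peroxidase, ran from 24.7 to 45.3 CPM with a median of 31.4 in WT and had 134, 34.0, 44.4, 29.6 and 61.1 CPM in dIEC. dIEC replicate 1 stood far above every other library, and dIEC replicates 3, 5 and 6 lay within the WT range. Mgst1 had a log2 fold change of 0.89 ± 0.35 (unadjusted p = 0.0270 by edgeR; exact permutation p = 0.108), and 0.37 without dIEC replicate 1.

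Gsto1, an omega-class enzyme with thiol transferase activity and the transferase with the highest mean CPM, ran from 35.3 to 58.5 CPM with a median of 41.3 in WT and had 49.5, 49.6, 39.5, 47.1 and 59.9 CPM in dIEC. The Gsto1 groups overlapped, and the log2 fold change was 0.18 ± 0.14, or 0.28 without WT replicate 8. Mgst2, which can form leukotriene C4, had 26.2 to 43.9 CPM in WT and 25.6 to 44.9 CPM in dIEC. Mgst3 had 19.97 to 36.5 and 18.2 to 27.9 CPM, and Gstp1, the pi-class enzyme, 20.6 to 28.0 and 18.5 to 30.1 CPM. Fold changes of these 3 genes were 0.044, -0.13 and -0.040 on the log2 scale, each smaller than its standard error. In that order they were 0.14, 0.014 and -0.061 without WT replicate 8 and -0.053, -0.21 and 0.040 without dIEC replicate 1.

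Of 29 other glutathione genes, 22 were tested, and 7 lay above 0 (31.8%, beside 48.8% of all genes) and 15 below. Unadjusted p was under 0.05 for 2 in each direction (18.2%, beside 10.7% of all genes). Ggt1, the surface enzyme that breaks down extracellular glutathione, averaged 42.8 ± 21.4 CPM (WT) against 78.8 ± 24.2 CPM (dIEC) (log2 fold change 0.88 ± 0.32; exact permutation p = 0.0346). Glrx, glutaredoxin, averaged 46.5 ± 13.6 and 68.6 ± 19.9 CPM (log2 fold change 0.56 ± 0.21). Both passed edgeR's adjusted threshold without WT replicate 8 (adjusted p = 0.0492 for each) and in no other fit run.

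The glucuronosyl- and sulfotransferases had a median of 0.40, with 3 of 5 above 0, and none had an unadjusted p under 0.05. Ugt2b34, the most abundant of them, ran from 64.7 to 122 CPM with a median of 71.8 in WT and had 92.0, 82.9, 62.0, 65.5 and 87.7 CPM in dIEC. WT replicate 8 stood above the other 10 libraries, and the remaining values of the groups overlapped throughout. Ugt2b34 had a log2 fold change of -0.036 ± 0.17 (95% interval -0.37 to 0.30), which became 0.12 without WT replicate 8 and -0.10 without dIEC replicate 1. Sult1b1, a sulfotransferase of phenols and thyroid hormones, ran from 16.4 to 50.6 CPM with a median of 20.2 in WT and had 34.5, 32.7, 25.9, 26.5 and 42.3 CPM in dIEC. All dIEC libraries lay above all WT libraries except replicate 8, and the log2 fold change of 0.40 ± 0.27 became 0.73 without that library. Sult1d1, which sulfates catecholamines, had 18.4 to 46.6 CPM in WT and 29.1 to 70.2 CPM in dIEC (log2 fold change 0.62 ± 0.29), with WT replicate 8 and dIEC replicate 1 the highest of their groups. By edgeR's quasi-likelihood test its log2 fold change became 0.85 without WT replicate 8 (unadjusted p = 0.00656) and 0.34 without dIEC replicate 1 (unadjusted p = 0.196). Ugt1a1, the bilirubin-conjugating enzyme, had 5.10 to 12.3 and 6.82 to 15.8 CPM, and Ugt1a6a, which conjugates planar phenols, 0.847 to 2.81 and 0.608 to 2.30 CPM. The log2 fold change of Ugt1a6a was -0.23, and -0.12 without WT replicate 8 and -0.38 without dIEC replicate 1. These Ugt1a genes share their last exons, so 58.2% and 52.1% of their 50-base stretches are common to other Ugt1a genes and their counts may not be separate.

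Of 38 other conjugation genes, 14 were tested and 6 lay above 0 (42.9%, beside 48.8% of all genes). Unadjusted p was under 0.05 for 1 higher and 2 lower (21.4%, beside 10.7% of all genes). Sult2b1, a sulfotransferase of cholesterol, averaged 17.8 ± 7.38 CPM (WT) against 26.7 ± 6.72 CPM (dIEC) (log2 fold change 0.60 ± 0.24; edgeR adjusted p = 0.0328 without WT replicate 8). Hnmt, which methylates histamine, averaged 2.07 ± 0.653 and 1.27 ± 0.340 CPM (log2 fold change -0.74 ± 0.28). Ugt2b5 averaged 2.38 ± 0.245 and 1.55 ± 0.526 CPM (log2 fold change -0.59 ± 0.23; exact permutation p = 0.0173).

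The 2 efflux pumps sit in the brush border and return drugs and conjugates to the lumen. Abcb1a, one of the P-glycoprotein genes, ran from 63.7 to 216 CPM with a median of 93.2 in WT and had 164, 120.3, 77.4, 109 and 115 CPM in dIEC. WT replicate 8 was the highest of all libraries, and the groups overlapped. Abcb1a had a log2 fold change of 0.12 ± 0.29 (95% interval -0.45 to 0.70), 0.45 without WT replicate 8 and -0.029 without dIEC replicate 1. Abcg2, the breast cancer resistance protein gene, had 32.2 to 126 CPM in WT and 54.3 to 109 CPM in dIEC. Without WT replicate 8, all its dIEC values but that of replicate 6 lay above every WT value, and the log2 fold change moved from 0.42 ± 0.37 to 0.88. Of 9 other efflux transporters, 8 were tested and 3 lay above 0 (37.5%, beside 48.8% of all genes). Unadjusted p was under 0.05 for 2, both lower (25%, beside 5.79% of all genes). Abcc5, a pump of cyclic nucleotides, averaged 19.2 ± 3.56 CPM (WT) against 12.5 ± 1.76 CPM (dIEC) (log2 fold change -0.63 ± 0.14; exact permutation p = 0.00866; edgeR adjusted p = 0.0421 without WT replicate 8). Abcc1, a pump of glutathione conjugates, averaged 15.7 ± 2.56 and 12.6 ± 1.83 CPM (log2 fold change -0.33 ± 0.14).

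Levels of different members can be compared only per length of transcript. Per kilobase of annotated exon the members spanned 0.191 CPM (Ahrr) to 55.2 CPM (Cyp4f14), with Ces2e at 43.2, Gsr at 35.5, Gsto1 at 22.8 and Mgst1 at 22.6 CPM per kilobase. Gstm2, at 1.51, Ahr, at 1.48, and Cyp1b1, at 1.20 CPM per kilobase, were among the lowest.

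**Figure D4:**
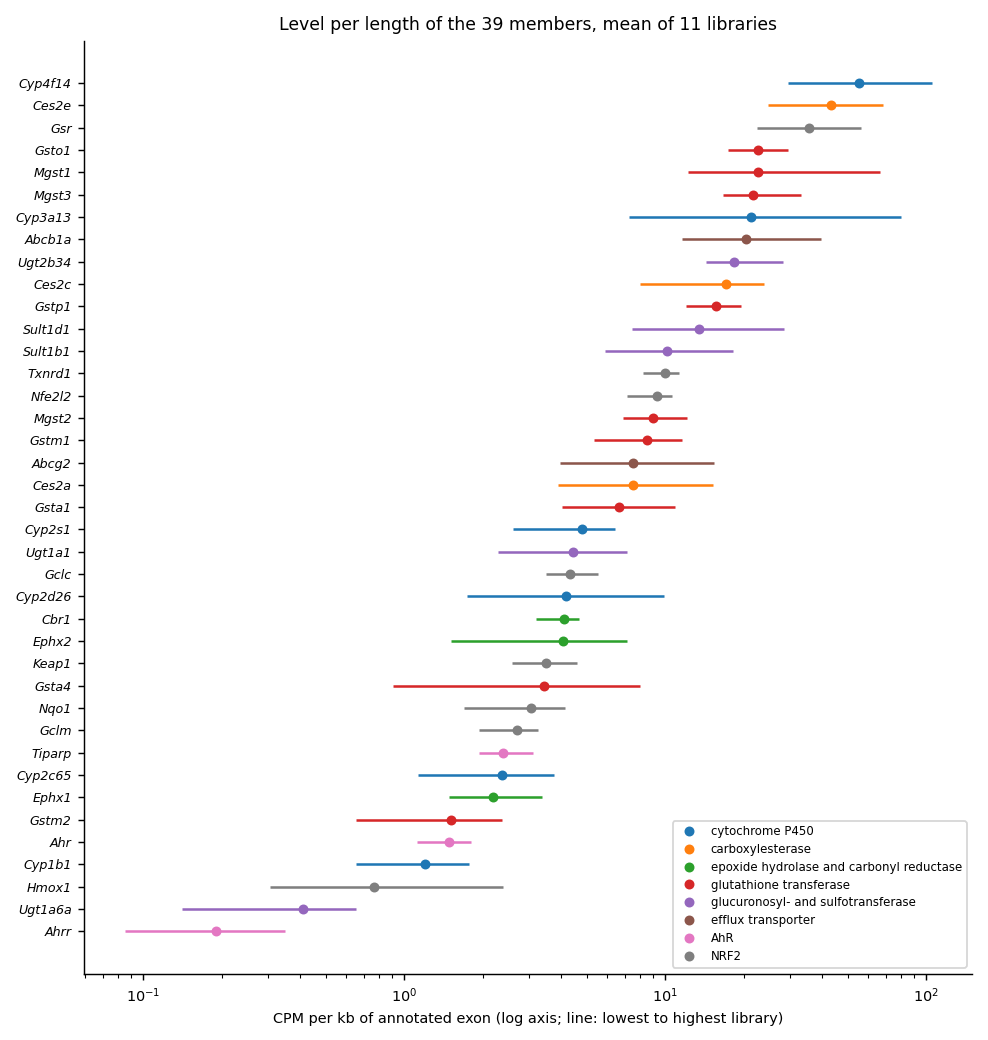
CPM per kilobase of annotated exon (log axis) of the 39 members; the point is the mean of the 11 libraries, the line runs from the lowest to the highest library, and the colour is the class. Cyp4f14 (55.2 CPM per kilobase), Ces2e (43.2) and Gsr (35.5) are the highest and Ahrr (0.191) the lowest, and the lines of neighbouring genes overlap.

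The AhR class is the receptor with its repressor and a target that feeds back on it. Ahr ran from 8.13 to 11.03 CPM with a median of 9.07 in WT and had 10.8, 6.93, 11.1, 7.56 and 7.14 CPM in dIEC. dIEC replicates 1 and 5 lay near the highest WT library and the other 3 below the lowest, so the groups overlapped. Ahr (ENSMUSG00000019256.17, chr12:35497974-35535038, minus strand) had a log2 fold change of -0.13 ± 0.16 (95% interval -0.44 to 0.17), and -0.23 without dIEC replicate 1. Tiparp, an AhR target whose product ADP-ribosylates the receptor and limits its activity, ran from 8.45 to 10.2 CPM with a median of 9.54 in WT and had 12.4, 12.5, 9.52, 9.29 and 13.6 CPM in dIEC. dIEC replicates 1, 3 and 11 lay above all WT libraries, and dIEC replicates 5 and 6 within their range. Tiparp had a log2 fold change of 0.28 ± 0.12 (unadjusted p = 0.0405 by edgeR; exact permutation p = 0.0693). Ahrr, the AhR repressor, had 0.802 to 3.31 CPM in WT and 0.810 to 2.20 CPM in dIEC on 4 to 30 counts per library, and a log2 fold change of -0.43 ± 0.37. The AhR targets differed in sign, with Tiparp above 0, Ahrr and Cyp1b1 below, and Cyp1a1 at or near 0 counts in every library. Of 11 other AhR pathway genes, 10 were tested and 2 had an unadjusted p under 0.05, both higher (20%, beside 4.86% of all genes). These were Gcnt1, a glycosyltransferase, at 7.87 ± 5.57 CPM (WT) against 17.7 ± 10.4 CPM (dIEC), and Ido1, which turns tryptophan into kynurenine, an AhR ligand, at 3.46 ± 1.32 and 6.83 ± 4.91 CPM.

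Promoter sequence is shown for Ahrr and Tiparp because both are classical AhR targets. The AhR core motif did not define the class, which was set by function. The motif GCGTG was searched on both strands in the 250 bases before each gene's start in the RefSeq promoter table (GRCm38.p6), which held 36 of the 42 members and 33 of the 39 with at least 1 CPM. It occurred in 13 of those 33 members (39.4%) and in 30.9% of 27025 genes, and a match is a description of letters only. In the stretches below, 5′ to 3′ on the gene's strand, capitals mark the core as GCGTG or as its complement CACGC.
Ahrr, chr13:74292347-74292446, minus strand: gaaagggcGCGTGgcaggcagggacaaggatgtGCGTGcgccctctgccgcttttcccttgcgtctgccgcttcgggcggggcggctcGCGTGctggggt
Tiparp, chr3:65528229-65528328, plus strand: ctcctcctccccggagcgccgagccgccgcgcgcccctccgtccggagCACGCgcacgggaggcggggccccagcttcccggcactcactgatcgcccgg
The stretch of Ahrr holds 3 matches and that of Tiparp holds 1, and a link between matches and values was not tested.

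The NRF2 class had 7 tested members, 4 above 0 and 3 below, with a median of 0.0080. Nfe2l2, which encodes NRF2, ran from 31.1 to 40.3 CPM with a median of 37.6 in WT and had 27.2, 31.6, 34.2, 35.9 and 36.3 CPM in dIEC. All dIEC libraries lay below the WT median, 4 of them within the WT range. Nfe2l2 (ENSMUSG00000015839.6, chr2:75675513-75704641, minus strand) had a log2 fold change of -0.16 ± 0.10 (95% interval -0.36 to 0.037; exact permutation p = 0.108), and -0.10 without dIEC replicate 1. Keap1, its inhibitor, ran from 13.5 to 17.3 CPM with a median of 15.7 in WT and had 21.6, 18.2, 12.2, 18.3 and 16.9 CPM in dIEC. dIEC replicates 1, 3 and 6 lay above the WT range and dIEC replicate 5 below it. Keap1 had a log2 fold change of 0.17 ± 0.13 (95% interval -0.078 to 0.43), and 0.090 without dIEC replicate 1.

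Nqo1, the quinone reductase often used as a readout of NRF2, ran from 4.09 to 6.42 CPM with a median of 5.60 in WT and had 4.31, 3.91, 2.63, 3.46 and 5.08 CPM in dIEC. dIEC replicates 3, 5 and 6 lay below every WT library and the other dIEC libraries within the lower part of the WT range. Nqo1 (ENSMUSG00000003849.8, chr8:107388225-107403206, minus strand) had a log2 fold change of -0.48 ± 0.18 (unadjusted p = 0.0193 by edgeR; exact permutation p = 0.0260), on 13 to 68 counts per library. Gsr, glutathione reductase and the most abundant gene of the class, ran from 61.8 to 107 CPM with a median of 80.2 in WT and had 155, 121, 74.6, 99.0 and 119.7 CPM in dIEC. dIEC replicates 1, 3 and 11 lay above all WT libraries, and dIEC replicate 5 below the WT median. Gsr (ENSMUSG00000031584.16, chr8:33652523-33698163, plus strand) had a log2 fold change of 0.44 ± 0.18 (unadjusted p = 0.0272 by edgeR; exact permutation p = 0.0736), and 0.30 without dIEC replicate 1. So of these NRF2 genes Nqo1 lay lower and Gsr higher in dIEC.

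Gclc and Gclm encode the catalytic and the modifier subunit of glutamate-cysteine ligase, the first enzyme of glutathione synthesis. Gclc had 13.1 to 20.9 CPM in WT and 14.4 to 17.4 CPM in dIEC, and Gclm 14.4 to 20.1 and 12.1 to 20.4 CPM. Log2 fold changes of Gclc and Gclm were -0.040 (95% interval -0.28 to 0.19) and 0.0080 (-0.26 to 0.28). The ratio of Gclc to Gclm counts, formed like the Ces2 ratios above, was 0.967 in WT and 0.954 in dIEC. Without WT replicate 8 the fold changes of Gclc and Gclm were 0.037 and 0.060, and without dIEC replicate 1 -0.039 and -0.062. Txnrd1, thioredoxin reductase, had 58.4 to 79.6 and 63.2 to 80.0 CPM and a log2 fold change of 0.10 ± 0.11. The normal 95% intervals of these 3 genes reached at most 0.31 from 0 on the log2 scale, the upper end for Txnrd1. Hmox1, heme oxygenase, which macrophages also make, ran from 0.535 to 1.56 CPM with a median of 0.909 in WT and had 4.17, 0.894, 2.03, 0.787 and 0.962 CPM in dIEC. dIEC replicates 1 and 5 lay above all WT libraries and the other 3 within their range (exact permutation p = 0.268). The 8 macrophage markers, none at 0 in all libraries, summed to 43.7 to 137 CPM in WT and 71.3 to 126 CPM in dIEC, and their part in the Hmox1 values was not tested.

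The antioxidant response element core TGACNNNGC, searched on both strands in the same windows, occurred in 5 of 33 members (15.2%; Cyp4f14, Mgst1, Nfe2l2, Gclm and Txnrd1) and in 11.5% of 27025 genes. The stretches of Gclm and Mgst1 are shown because these members of like motif differed in value, Gclm with a fold change near 0 and Mgst1 among the highest. A link between motif and value was not tested. Capitals mark the core, which reads on the opposite strand in both.
Gclm, chr3:122245377-122245476, plus strand: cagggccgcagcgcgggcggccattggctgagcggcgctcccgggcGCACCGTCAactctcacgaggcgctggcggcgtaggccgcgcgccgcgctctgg
Mgst1, chr6:138140425-138140524, plus strand: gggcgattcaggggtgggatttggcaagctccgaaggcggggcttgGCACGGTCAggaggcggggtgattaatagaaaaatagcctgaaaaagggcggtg
Among 32 other NRF2 pathway genes, 31 were tested and 19 lay above 0 (61.3%, beside 48.8% of all genes). Unadjusted p was under 0.05 for 3 higher and 1 lower (12.9%, beside 10.7% of all genes). Bach1, a repressor that competes with NRF2 at these elements, averaged 41.3 ± 10.8 CPM (WT) against 62.1 ± 13.3 CPM (dIEC) (log2 fold change 0.59 ± 0.17; exact permutation p = 0.0216). Idh1, a cytosolic source of NADPH, averaged 38.4 ± 5.47 and 50.3 ± 6.73 CPM (log2 fold change 0.39 ± 0.12; exact permutation p = 0.0130). Srxn1, sulfiredoxin, averaged 46.7 ± 16.9 and 63.6 ± 11.4 CPM (log2 fold change 0.45 ± 0.21). All 3 passed edgeR's adjusted threshold without WT replicate 8 (adjusted p = 0.0328, 0.0485 and 0.0394) and in no other fit run. Of 9 nuclear receptor genes that govern these enzymes, 9 were tested and 7 lay above 0 (77.8%, beside 48.8% of all genes). Among these receptors 3 had an unadjusted p under 0.05, all higher (33.3%, beside 4.86% of all genes). The lowest p among them belonged to Nr1h4, the bile acid receptor FXR (57.9 ± 20.4 CPM (WT) against 85.3 ± 23.2 CPM (dIEC)), and to Esrra (35.7 ± 6.08 and 43.3 ± 4.83 CPM).

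Many members are epithelial genes, so each was also set against the epithelial content of its library, the mean log2 CPM of 14 epithelial genes, which averaged 7.15 ± 0.265 (WT) against 7.40 ± 0.155 (dIEC; exact permutation p = 0.108). Relative to that content, 13 of 38 members lay above 0, beside 12.9% of all genes, and the median was -0.22 for the members and -0.26 for all genes. At an unadjusted exact permutation p under 0.05 there were 11 of 38 members, all lower in dIEC. Of all genes, 11.5% were lower and 0.628% higher at that p. The 11 members were Gstm2 (-1.13; exact p = 0.00433), Gsta4 (-1.04), Cyp2c65 (-0.77), Nqo1 (-0.73), Ephx1 (-0.72), Gsta1 (-0.56), Nfe2l2 (-0.41), Cyp2s1 (-0.37), Mgst3 (-0.36), Ugt2b34 (-0.27) and Gclm (-0.26). Ugt2b34 and Gclm lay near the median of all genes, and had -0.036 and 0.0080 in the edgeR fit without this reference. Cyp3a13 (0.86) and Mgst1 (0.42) kept the largest positive values. Without WT replicate 8 the count was 17, 13 lower and 4 higher in dIEC, beside 37.4% of all genes in either direction. It was 7 without WT replicate 2 (beside 6.51%), 7 without dIEC replicate 3 (7.24%), 6 without dIEC replicate 5 (9.43%) and 4 without dIEC replicate 11 (6.14%), all lower.

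With the absorptive enterocyte score as a covariate in the edgeR fit, 9 of 38 members lay above 0, beside 47.4% of all genes, and the members' median was -0.11. In that fit 7 members had an unadjusted p under 0.05, all lower in dIEC (18.4%, beside 1.63% of all genes lower and 3.21% in either direction), and 0 passed the adjusted threshold, as did 0.00628% of all genes. The 7 were Cyp2c65 (-0.76), Gstm2 (-0.76), Gsta1 (-0.68), Cyp2s1 (-0.46), Mgst3 (-0.40), Gclm (-0.27) and Ugt2b34 (-0.34). The 5 members that lay above 0 at an unadjusted p under 0.05 without the covariate had log2 fold changes of 0.27 (Cyp3a13), 0.27 (Mgst1), 0.057 (Ces2a), 0.17 (Gsr) and 0.22 (Tiparp) with it. Of the 5 that lay below 0 at that p, Ephx1 had -0.31, Nqo1 -0.47 and Gsta4 -0.53 with it, beside Cyp2c65 and Gstm2 above. The covariate was itself measured in these libraries and differed between the groups, so the genotype and the enterocyte content cannot be fully told apart.

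**Figure D5:**
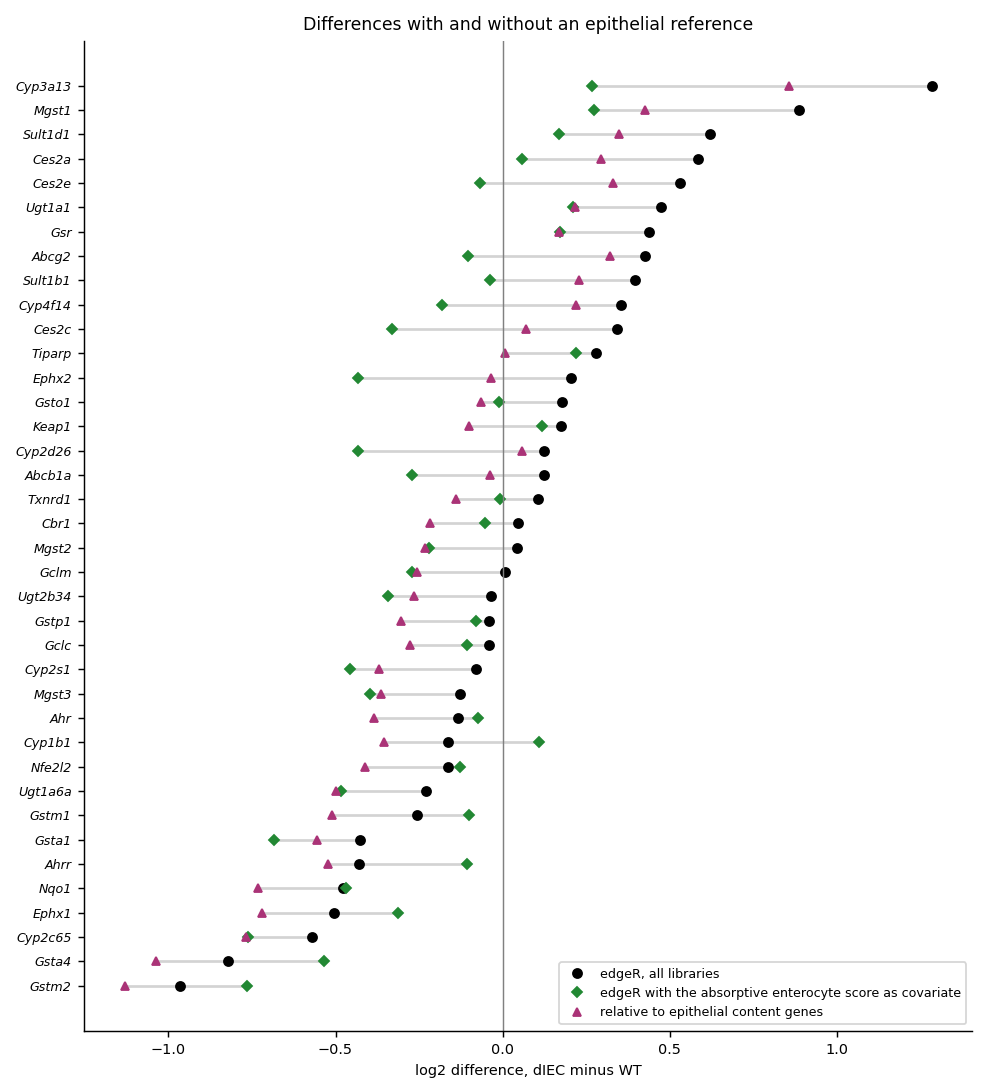
For each of the 38 tested members (rows), the log2 difference between dIEC and WT in the edgeR fit (black circle), in the edgeR fit with the absorptive enterocyte score as a covariate (green diamond) and relative to the epithelial content genes (purple triangle). Gstm2 is at -0.96, -0.76 and -1.13, and Cyp3a13 at 1.28, 0.27 and 0.86.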

How the data were processed

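RNA was extracted from ileum in Trizol with Zymo Direct-zol kits and made into directional NEBNext Ultra libraries, per the labels' protocols. Reads were aligned with TopHat2 to mm10, per the submitters' processing notes. How reads were counted (tool, strand, annotation, multiply placed reads) was not given in the sources used here, so values of near-identical, overlapping and antisense genes are uncertain. The authors deposited whole-number counts per gene without normalization. The 1 row of 31169 that named no gene held 0.00778 to 0.0147% of a library's counts and was left out.

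Genes were filtered with filterByExpr by group in edgeR 4.0.16 (R 4.3.3), libraries were scaled with TMM factors (0.747 to 1.25), and dIEC was compared with WT by the robust quasi-likelihood F test, adjusted by Benjamini-Hochberg over 15911 genes at a threshold of 0.05. CPM are counts per 1000000 of the library total multiplied by its TMM factor. Each standard error is the absolute log2 fold change over the root of its F statistic. For single values the test was an exact permutation over 462 splits, two-sided. Log2 CPM for scores used a prior count of 2. DESeq2 1.42.0, other scaling, no filter, an enterocyte covariate and leaving out libraries were alternatives. The fit was tested on simulated counts. Per the design text each library is 1 mouse, so p-values rest on the spread between mice.

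Coordinates, exon lengths and transcripts came from GENCODE vM21 (GRCm38), which held 99.2% of the symbols, and promoters from RefSeq (GRCm38.p6). The members, gene lists and tests were chosen with earlier results of these data known. Named genes: every member at a mean of 1 CPM or more, with all values for the 10 lowest p, the highest of each class and Nqo1, Ahr, Cyp1a1, Nfe2l2 and Keap1, and of each other list the 2 lowest p and those past the threshold in any fit.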

Additional observations from a re-analysis of the deposited data

Results flagged for a closer look

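For each member in each group, the highest or lowest library was set against the gap to its neighbour. By Dixon's criterion, 11 of 78 such groups held a library that stood apart from the rest. Its nominal rate of about 1 in 20 groups is no chance rate here, since genes high in the same library are not independent. The share over all genes was not counted, so the 11 are a description only. WT replicate 8 was the library in 9 of the 11, each time as the highest of WT. Its values were 17.7 CPM for Cyp2d26, 82.7 CPM for Cyp3a13, 255 CPM for Cyp4f14, 185 CPM for Ces2e and 122 CPM for Ugt2b34. It also had 50.6 CPM for Sult1b1, 46.6 CPM for Sult1d1, 216 CPM for Abcb1a and 126 CPM for Abcg2. These 9 genes are P450, carboxylesterase, conjugation and efflux genes, and none of the AhR or NRF2 members was among them. The enterocyte score of the same library, 7.35, was the highest of WT, and its part in these values was not tested. dIEC replicate 1 stood apart with 237 CPM of Cyp3a13, where the next dIEC library had 74.6 CPM. WT replicate 12 stood apart with 10.2 CPM of Gsta4, where the next WT library had 5.19 CPM.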

How the results depend on the processing

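Of the 37 members with a value in each of the 16 alternative fits, 17 kept the sign of their log2 fold change and 20 turned in at least 1 fit, and Ahrr kept its sign in the 14 fits that tested it. No paired analysis was possible because the groups share no replicate number. The fits without 1 library gave 1 to 319 genes past the adjusted threshold, 0 to 2 members past it and 4 to 16 members at an unadjusted p under 0.05. Relative to epithelial content they gave 4 to 17 members at an exact p under 0.05 (4 of the 17 higher in dIEC). The highest of each of these counts came without WT replicate 8. The number of genes past the threshold was also 2 with library totals as scaling, 11 by DESeq2 and 7 with WT replicate 8 and dIEC replicate 1 both left out, an alternative chosen after seeing the data. Scaling by library totals, which moves the median of all genes to -0.22, turned Cyp2d26 to -0.036, Cbr1 to -0.16, Mgst2 to -0.15, Abcb1a to -0.0052, Keap1 to -0.034, Gclm to -0.18 and Txnrd1 to -0.095. It moved the class medians of glutathione transferases to -0.30, of AhR to -0.39 and of NRF2 to -0.18. The enterocyte covariate left 9 members above 0 and moved the medians of carboxylesterases to -0.069, of epoxide hydrolases and carbonyl reductase to -0.31 and of glucuronosyl- and sulfotransferases to -0.039. Under it Cyp1b1 turned to 0.11, Cyp2d26 and Ephx2 to -0.43 each, Cyp4f14 to -0.18, Ces2c to -0.33, Ces2e to -0.069, Cbr1 to -0.054, Mgst2 to -0.22 and Gsto1 to -0.011, and likewise Sult1b1 to -0.039, Abcb1a to -0.27, Abcg2 to -0.10, Gclm to -0.27 and Txnrd1 to -0.0078. With both libraries left out Gstp1 turned to 0.020, Ugt2b34 to 0.058, Gclc to 0.039 and Gclm to -0.0090. Leaving out 1 library gave log2 fold changes from -0.12 to 0.60 for Cyp2d26, -0.19 to 0.069 for Cyp2s1, -0.0013 to 0.12 for Cbr1, -0.083 to 0.14 for Mgst2, -0.21 to 0.014 for Mgst3, -0.14 to 0.040 for Gstp1, -0.10 to 0.12 for Ugt2b34, -0.029 to 0.45 for Abcb1a, -0.10 to 0.037 for Gclc and -0.062 to 0.11 for Gclm, and differences in log2 ratio from -0.16 to 0.054 for Gclc to Gclm and -0.13 to 0.079 for Ces2a to Ces2e. The causes of these changes were not tested. Depth limits the low members most, such as Gstm2 at 8 to 36 counts per library, and Cyp1a1, Cyp2b10, Gstm3 and Hmox1 were too low for the test.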
